A study of Mus musculus with 14 samples.

Results

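The genes described here serve the uptake of fatty acids, their release from lipid droplets and their oxidation in mitochondria. Of 41 genes on the list, 37 had at least 1 probe set that the array annotation assigns to their symbol alone, out of 19938 genes with such a probe set. They were measured in the plantaris, a small muscle of the hindlimb calf, of male C57BL/6J mice aged 25 months. Groups were days 0, 1, 3, 5, 7, 10 and 14 of overload by synergist ablation, the removal of the gastrocnemius and soleus, which leaves the plantaris to carry their load. Each day had 2 Affymetrix Mouse Gene 1.0 ST arrays, 1 with RNA pooled from left and 1 from right muscles of 6 animals, and both pools of a day were taken to stem from 1 set of animals. P-values therefore measure the spread between sides and arrays only, and each day is its own set of animals, so day and animals cannot be told apart. No array is labelled as sham-operated, so surgery and load cannot be told apart either, and young muscle was not analysed here.

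A fatty acid reaches a muscle fibre after lipoprotein lipase frees it in the capillary or after the fibre's own lipid droplets are broken down, and acyl-CoA synthetases then activate it. Carnitine carries the activated chain into the mitochondrion, where dehydrogenation, hydration, a further dehydrogenation and thiolysis shorten it and release acetyl-CoA, with electrons passing to the electron transfer flavoprotein. Fibres with many mitochondria rely on this route most, and it is known to be under the control of the PPAR receptors, the estrogen-related receptors and their coactivator PGC-1alpha.

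The 4 members without a value of their own were Acsl1 and Ucp2, which the annotation used here lists under no probe set, and Acsl3 and Cpt1b, whose only probe set is shared with another gene symbol. The main muscle forms of the activating enzyme (Acsl1) and of the mitochondrial gate (Cpt1b) are therefore not described. Fabp3 and Hadhb each had 2 probe sets, whose differences from day 0 lay within 0.09 and 0.02 of each other on the log2 scale, and the brighter one stood for the gene. The values are log2 signals. Levels of different genes are not compared, since a probe set's brightness also depends on its probes.

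For 25 genes of contraction and excitation in muscle fibres, the mean log2 signal was 13.62 and 13.63 on day 0 (left and right). It was 12.80 and 12.45 on day 5 and 13.27 and 13.24 on day 14. No other tissue and no threshold stood beside these values, so they do not test the tissue label. The number of arrays limits precision, and no detection calls stood behind the values. Across genes, which are not independent replicates, Pearson's r between both pools of a day was 0.994 to 0.997. On day 5 the right pool was lower than the left by a median of 0.36 over the fibre genes (right minus left -0.36) and -0.15 over the 37 fatty acid genes, and on day 7 these values were -0.25 and -0.10. Macrophage genes averaged 8.94 and 8.59 on day 0, 11.79 and 11.73 on day 3 and 10.72 and 10.83 on day 14. In bulk RNA fewer fibres and less RNA per fibre cannot be told apart, and a share of each sample taken by other cells lowers fibre transcripts in the same way.

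As deposited, most of the 37 genes were lower than on day 0 throughout the first 2 weeks of overload, while scaling to muscle fibre genes turned 15 of 32 falls on day 3 and 19 of 33 on day 5 above 0. The call was an adjusted p under 0.05 in limma, which was fitted to all 14 arrays and adjusted over all genes. Above 0 after scaling is the sign alone, and some of these values lay close to 0. Called higher on the scaled values were 11 members on day 3 and 9 on day 5, including the 4 higher as deposited. As deposited, 29 members were lower and 5 higher on day 1, where 22.6% of all genes were lower and 22.3% higher. On day 3, 32 were lower and 4 higher, against 26.6% and 24.1% of all genes. On day 5, 33 were lower and 4 higher, against 33.7% and 26.4% of all genes. The lower share of the members thus stood above that of all genes on each of these days.

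On day 7, 32 members were lower and 4 higher, where 36.3% of all genes were lower and 26.6% higher. On day 10 the counts were 32 and 3, against 34.3% and 25.9% of all genes. On day 14 they were 30 and 2, against 30.5% and 22.9%. The median member difference was -0.70, -0.92, -0.95, -0.90, -0.92 and -0.68 on days 1, 3, 5, 7, 10 and 14, beside 0.04, -0.07, -0.12, -0.14, -0.13 and -0.11 over all genes. The moderated F test over all days called 37 of 37 members, but also 79.5% of all genes. As deposited, 27 members were lower on all 6 days and 33 on at least 1 day. On at least 1 day 5 were higher, namely Acsl4, Acsl5, Cpt1a, Plin2 and Pdk4. Day 5 was the lowest day for 13 members, day 3 for 8 and day 7 for 6. Calls on several days and lowest days were not counted over all genes, so these counts have no share to be judged by.

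**Figure D1:**
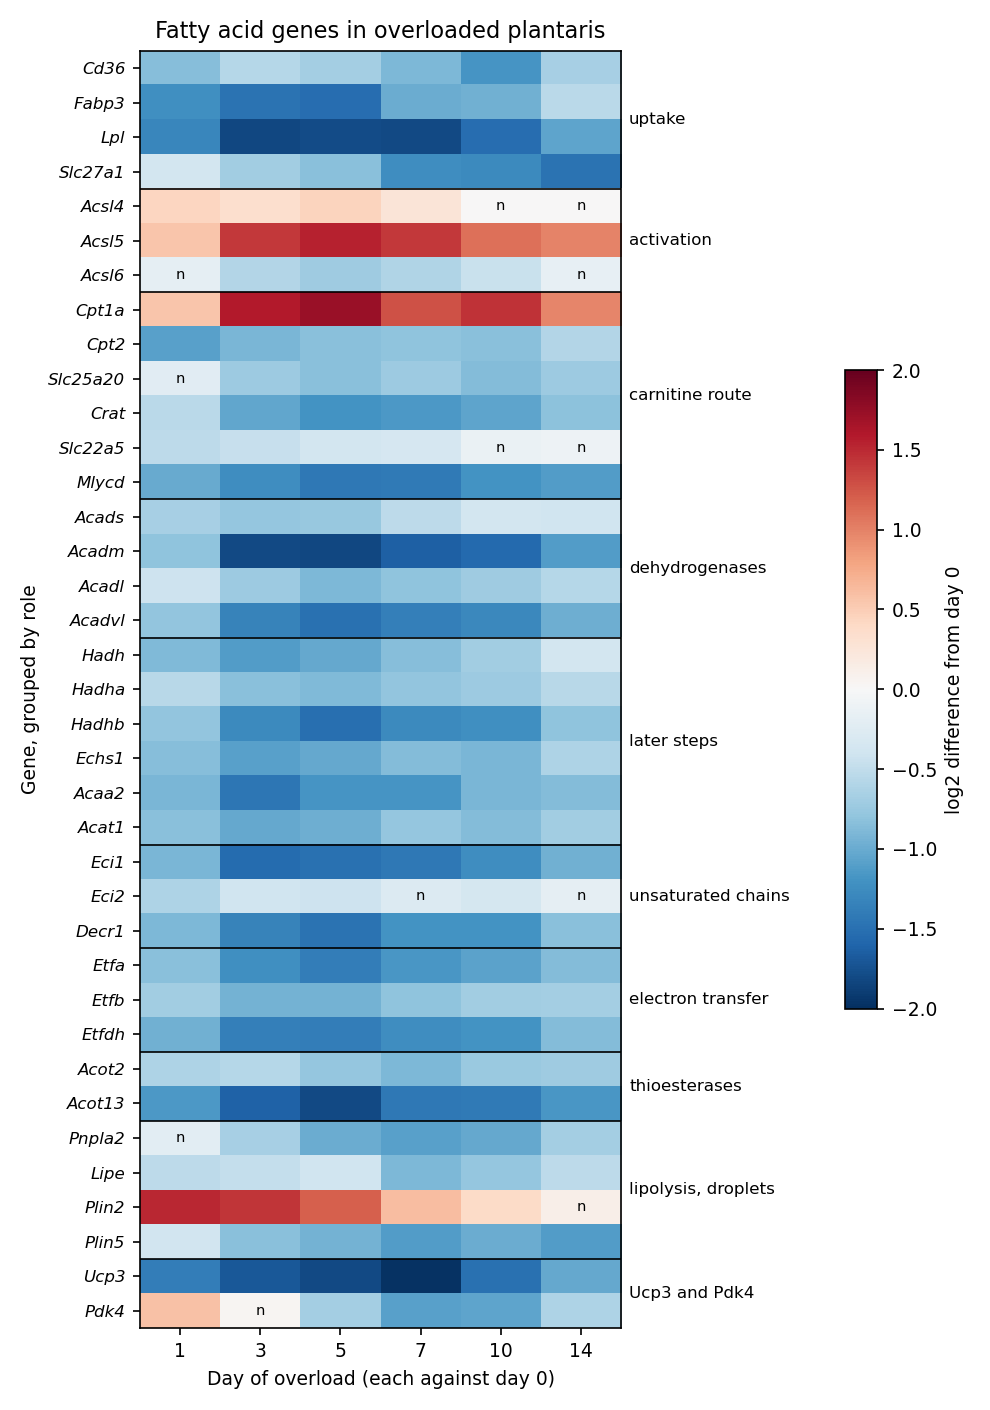
Log2 difference from day 0 (colour) of the 37 fatty acid genes (rows, by role) on each later day of overload (columns), means of 2 arrays per day; n marks values with an adjusted p of 0.05 or more. Blue rows run through nearly every role on the deposited scale, and red rows are Cpt1a, Acsl5, Plin2 and Acsl4. Scaling to fibre genes turns 15 of 32 falls on day 3 and 19 of 33 on day 5 above 0, which is the sign alone and not a call.

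The fibre genes themselves had medians close to those of the fatty acid genes on days 3 and 5 and nearer to 0 on the other days. Of 25 fibre genes 18, 24, 24, 22, 22 and 12 were lower on days 1, 3, 5, 7, 10 and 14 and 0 were higher, with medians of -0.42, -0.89, -1.03, -0.73, -0.62 and -0.35. The 8 genes of slow fibres took another course, with medians of -0.69, 0.52, 1.01, 1.23, 1.24 and 1.19, and on day 5, 5 of them were higher and 3 lower than on day 0. All 14 macrophage genes were higher on day 3 and on each later day, with medians of 2.87 on day 3 and 2.01 on day 14. On day 1, 12 were higher, at a median of 1.41. Neutrophil genes were higher on day 1 in 9 of 9 (median 2.04), and on day 14, 6 of 9 were lower (median -1.02). Of 9 fibroblast genes, 3 were higher and 4 lower on day 1 (median -0.19), 8 were higher on day 5 (median 2.48) and 9 on day 14 (median 2.39). The part of fibre and infiltrating RNA in the fall of the fatty acid genes was not tested, but each array was also scaled to the median of its fibre genes. Fast fibre genes such as Myh4, Actn3, Tnni2 and Atp2a1 are among those 25, and the slow fibre genes are not. Whether a shift between fibre types moved values on that scale was not tested.

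On that scale 13, 10, 11, 17, 16 and 15 members were lower and 5, 11, 9, 5, 5 and 2 higher on days 1, 3, 5, 7, 10 and 14. The SEs of the members were 0.16 to 0.19 there, larger than most of those given below as deposited. A lost call therefore does not by itself show a smaller difference. The member medians became -0.23, 0.06, 0.08, -0.20, -0.30 and -0.33, so the median changed sign on days 3 and 5. Of all genes, 4.95%, 2.29%, 2.34%, 3.54%, 3.97% and 4.14% were lower than day 0 on these days on that scale. Higher were 64.5%, 89.4%, 90.2%, 69.4%, 58.8% and 31.2% of all genes. On each day higher calls were thus less common among the members than among all genes, and lower calls more common. Of the members lower as deposited, 3 of 29 on day 1, 15 of 32 on day 3, 19 of 33 on day 5, 3 of 32 on days 7 and 10 and 0 of 30 on day 14 lay above 0 after scaling. Below day 0 on all days in both scalings were 14 genes, namely Fabp3, Lpl, Crat, Mlycd, Acadm, Acadvl, Hadhb, Acaa2, Eci1, Decr1, Etfa, Etfdh, Acot13 and Ucp3. How many of all genes did the same was not counted.

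**Figure D2:**
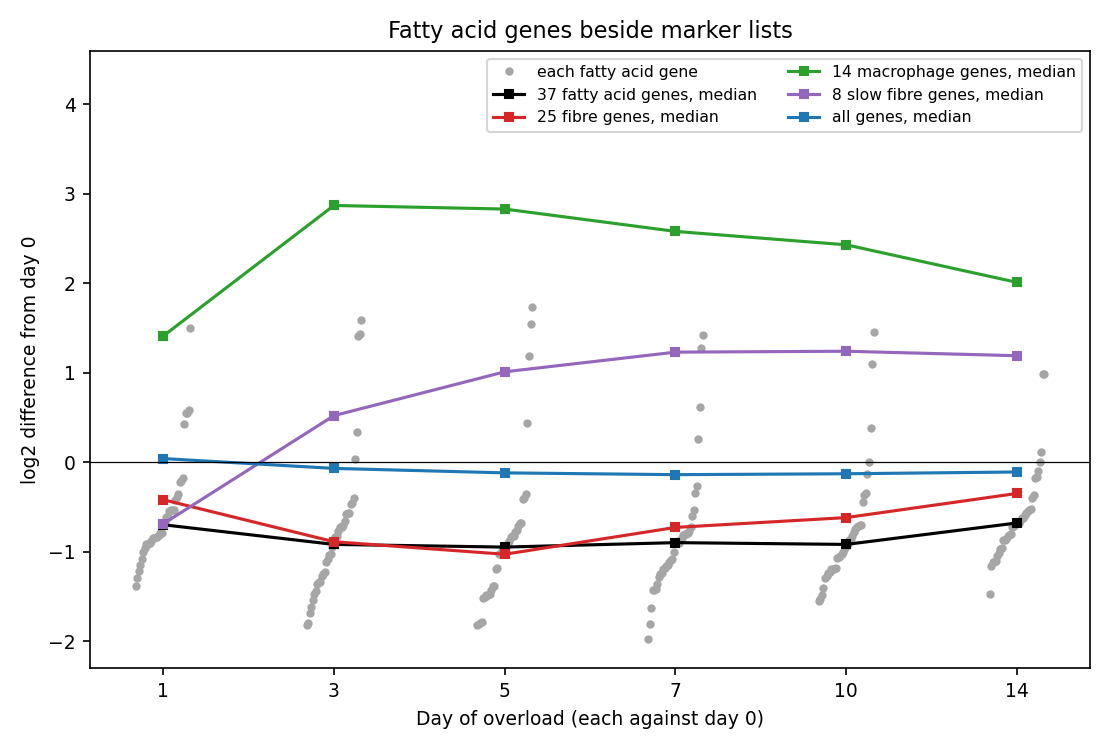
Log2 difference from day 0 by day of overload for each fatty acid gene (grey points) and the medians of the fatty acid, fibre, macrophage and slow fibre lists and of all genes (lines with squares). The fatty acid median (-0.95 on day 5) lies close to the fibre median (-1.03), below it on the other days, and far from the macrophage median (2.83).

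Among the uptake genes, Lpl, which encodes the lipase that frees fatty acids from circulating lipoproteins, was lower on all 6 days in both scalings. Its log2 signals were 12.32 and 12.49 on day 0, 11.24 and 10.97 on day 1, 10.61 and 10.57 on day 3, 10.64 and 10.59 on day 5, 10.61 and 10.58 on day 7, 10.89 and 10.87 on day 10 and 11.35 and 11.37 on day 14 (left and right). Day 3 stood at 0.28 of day 0 as deposited, a log2 difference of -1.82 ± 0.09 (SE, limma, adjusted p = 9.2e-09). Both pools of every later day lay below both pools of day 0. The lowest values were on days 3, 5 and 7, and day 14 was still at -1.05 ± 0.09. Scaled to fibre genes, Lpl stood at -0.85 on day 3 and -0.70 on day 14.

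Fabp3, the fatty acid binding protein of heart and muscle cytosol, had signals of 12.56 and 12.71 on day 0, 11.49 and 11.34 on day 1, 11.28 and 11.05 on day 3, 11.41 and 10.83 on day 5, 11.81 and 11.47 on day 7, 11.74 and 11.60 on day 10 and 12.16 and 12.02 on day 14. It was lowest on day 5 at -1.52 ± 0.17 (limma, adjusted p = 7.4e-06), where the pools were 0.58 apart, and at -0.54 ± 0.17 on day 14 (adjusted p = 0.018). The call of day 14 was lost without the right pool of day 0 or of day 14 (-0.47, adjusted p = 0.10 in both). With fibre scaling, Fabp3 stood at -0.48 on day 5 and was not called on days 7, 10 and 14 (-0.29, -0.35 and -0.19, adjusted p = 0.10, 0.058 and 0.39). Its groups did not overlap with day 0 on any day.

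Cd36, the membrane carrier that brings fatty acids into fibres and capillary cells, was lower on all days as deposited, at -0.85 ± 0.07 on day 1 and -1.18 ± 0.07 on day 10, but stood at 0.40 on day 3 and 0.36 on day 5 when scaled to fibre genes. Slc27a1, the transport protein FATP1, had its lowest mean later than the other uptake genes. Its signals were 11.81 and 11.68 on day 0, 11.36 and 11.40 on day 1, 11.04 and 11.05 on day 3, 10.82 and 10.98 on day 5, 10.39 and 10.61 on day 7, 10.46 and 10.48 on day 10 and 10.41 and 10.12 on day 14. From day 7 to day 14 its right pool fell, while its left pool stayed level, and the pools of day 14 were 0.29 apart. Day 14 was its lowest day as deposited, at -1.48 ± 0.11 (limma, adjusted p = 2.8e-07), and it was 0.64 ± 0.11 lower than on day 5 (log2 difference -0.64, adjusted p = 0.00079). Scaled to fibre genes, Slc27a1 was above day 0 on days 1, 3 and 5 (0.11, 0.28 and 0.20) and at -1.13 on day 14. Its day 1 call (-0.36, adjusted p = 0.013) was lost without the left pool of day 0 (-0.30, adjusted p = 0.092) or of day 1 (-0.34, adjusted p = 0.059). Cd36 and Lpl are also made by capillary cells and fat cells. Of 12 endothelial genes 7 were lower on day 1 (median -0.52), and on day 5, 7 were higher and 4 lower (median 0.57). Of adipocyte genes, 7 of 8 were lower on day 1 and 5 on each of days 7 and 10 (medians -0.33, -0.58 and -0.43). On day 14, 0 were lower and 1 was higher (median 0.06). The mean log2 signal of the adipocyte genes lay between 8.86 and 9.64 on all arrays, and their part in the uptake genes was not tested.

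The genes of activation and of the carnitine gate held the clearest rises. Cpt1a, the carnitine palmitoyltransferase form that prevails in liver and is found in many other cells, had log2 signals of 9.58 and 9.57 on day 0, 10.07 and 10.19 on day 1, 11.10 and 11.22 on day 3, 11.30 and 11.31 on day 5, 10.82 and 10.89 on day 7, 11.07 and 10.99 on day 10 and 10.55 and 10.57 on day 14. It was 3.00-fold of day 0 on day 3 and 3.32-fold on day 5 (log2 difference 1.73 ± 0.07, limma, adjusted p = 2.6e-09). All 12 later arrays lay above both arrays of day 0, with pools no more than 0.12 apart, and day 14 was still at 0.98 ± 0.07. Cpt1a was higher on all 6 days in both scalings.

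Acsl5, a long-chain acyl-CoA synthetase of mitochondria and endoplasmic reticulum, followed the same course. Its signals were 8.62 and 8.26 on day 0, 9.07 and 8.93 on day 1, 9.77 and 9.94 on day 3, 9.93 and 10.04 on day 5, 9.80 and 9.92 on day 7, 9.60 and 9.49 on day 10 and 9.40 and 9.47 on day 14. It reached 1.54 ± 0.11 on day 5 (2.91-fold, limma, adjusted p = 2.0e-07) and stood at 0.99 ± 0.11 on day 14, with every later array above both of day 0, whose pools were 0.36 apart. Acsl4, the form that prefers arachidonic acid, was higher on days 1, 3, 5 and 7 by 0.43, 0.34, 0.44 and 0.26 and stood at 0.00 ± 0.09 on days 10 and 14. The call of Acsl4 on day 7 (adjusted p = 0.021) was lost with equal array medians (0.11, adjusted p = 0.24) and when any of its 4 arrays was left out. Acsl6, a synthetase best known from brain, was lower on days 3, 5, 7 and 10, by at most 0.71 on day 5 (-0.71 ± 0.14), but lay above day 0 on all 4 of those days when scaled to fibre genes (0.39, 0.33, 0.11 and 0.16). The Acsl6 call of day 10 (-0.45, adjusted p = 0.014) was lost without the left pool of day 0 (-0.43, adjusted p = 0.055) or the right pool of day 10 (-0.37, adjusted p = 0.091), and the Acsl4 call of day 3 without the right pool of day 3 (0.27, adjusted p = 0.060).

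**Figure D3:**
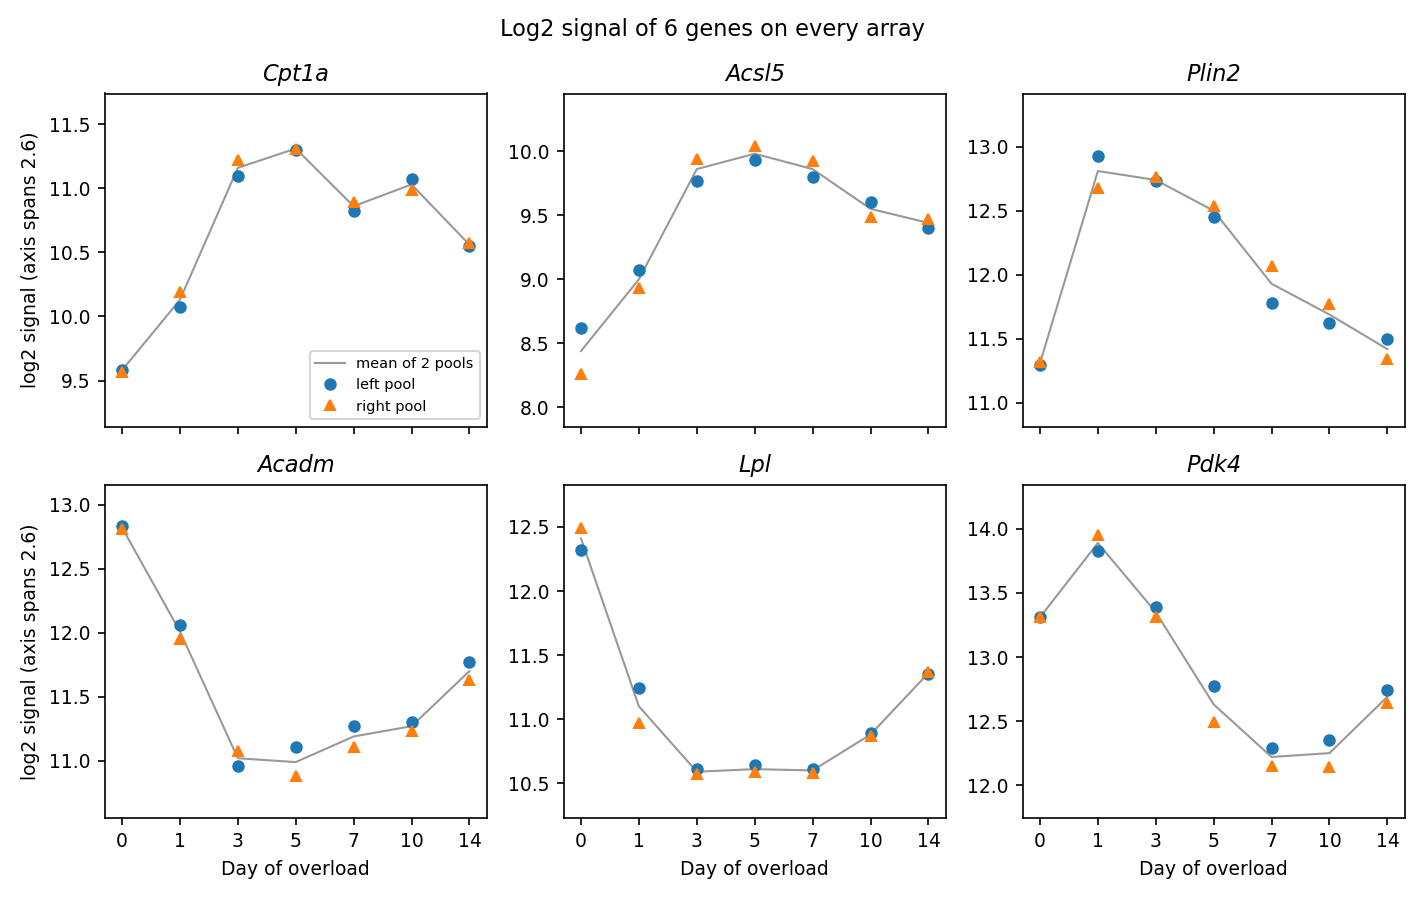
Log2 signal of 6 genes on every array, by day of overload (left pool, circle; right pool, triangle; grey line, mean of the pools); each vertical axis spans 2.6 log2 units at its own level. Cpt1a and Acsl5 peak on day 5 and Plin2 on day 1, Acadm and Lpl reach their floor by day 3 and Pdk4 is above day 0 on day 1 and below it from day 5.

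The other genes of the carnitine route ran opposite to Cpt1a as deposited. Cpt2, the inner membrane partner that returns the chain to coenzyme A, was lowest on day 1 at -1.08 ± 0.10, and on days 3 and 5 it was at -0.92 and -0.83 as deposited but at 0.06 and 0.21 when scaled to fibre genes. Crat, which makes acetylcarnitine, was at -1.19 ± 0.09 on day 5, and Mlycd, which removes the malonyl-CoA that blocks the gate, at -1.43 ± 0.10. On the fibre scale these became -0.16 for Crat (adjusted p = 0.35) and -0.39 for Mlycd (adjusted p = 0.025). Slc25a20, the carrier that swaps acylcarnitine for carnitine, was called from day 3 on and lowest on day 10 at -0.87 ± 0.11, with scaled values of 0.25 on day 3, 0.21 on day 5 and -0.26 on day 10. Slc22a5, the plasma membrane carnitine transporter, was lower on days 1, 3, 5 and 7 (-0.53, -0.46, -0.36 and -0.34) and was above day 0 on days 3, 5 and 7 when scaled (0.51, 0.68 and 0.37). On days 10 and 14 Slc22a5 stood at -0.13 and -0.10 (adjusted p = 0.18 and 0.34).

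The 4 acyl-CoA dehydrogenases, which open each turn of the cycle for chains of different lengths, were lower on all 6 days as deposited, with medians between -0.73 on day 1 and -1.20 on day 5, although Acads and Acadl were above day 0 on days 3 and 5 when scaled to fibre genes (0.20 and 0.28 for Acads, 0.24 and 0.14 for Acadl), as was Acads on days 7 and 10 (0.18 and 0.24) and Acadl on day 1 (0.05). Acadm, for medium chains, had log2 signals of 12.83 and 12.81 on day 0, 12.06 and 11.95 on day 1, 10.96 and 11.08 on day 3, 11.11 and 10.88 on day 5, 11.27 and 11.11 on day 7, 11.30 and 11.23 on day 10 and 11.77 and 11.63 on day 14. Its level on day 5 was 0.28 of day 0 (-1.82 ± 0.10, limma, adjusted p = 1.1e-08). The pools of all later days lay below those of day 0 by at least 0.75 log2 units, and the further fall between days 1 and 3 was called (-0.99 ± 0.10, adjusted p = 7.9e-06). Scaled to fibre genes, Acadm was at -0.83 on day 3, -0.79 on day 5 and -0.77 on day 14, and at -0.34 on day 1 (adjusted p = 0.063). Acadvl, for very long chains, stood at -1.49 ± 0.12 on day 5, Acadl, for long chains, at -0.90 ± 0.07 and Acads, for short chains, at -0.76 ± 0.08. Within this family the sizes thus differed, and no test between members was run.

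Later steps of the cycle moved in the same direction as deposited: all 6 of Hadh, Hadha, Hadhb, Echs1, Acaa2 and Acat1 were lower on all 6 days, with a median of -1.03 on day 5, which became 0.01 when scaled to fibre genes. On that scale Hadh, Hadha, Echs1 and Acat1 lay above day 0 on day 5 (0.01, 0.16, 0.01 and 0.06) and Hadha also on day 3 (0.15). Hadha and Hadhb encode the alpha and beta subunits of the trifunctional protein, a single complex. On day 5 Hadhb was at -1.51 ± 0.10 and Hadha at -0.88 ± 0.08, and the gap between them was not tested. Their signals on that day were 10.78 and 10.55 for Hadhb, against 12.06 and 12.30 on day 0, and 11.88 and 11.73 for Hadha, against 12.67 and 12.69 on day 0. Scaled to fibre genes these were -0.48 for Hadhb and 0.16 for Hadha. Hadh, the short-chain hydroxyacyl-CoA dehydrogenase, had come back furthest among the 27 members lower on all days. It stood at -1.12 ± 0.08 on day 3 and -0.37 ± 0.08 on day 14. Of its fall 67.1% was regained, where the median of the 27 was 38.1%. Acaa2, the mitochondrial 3-ketoacyl-CoA thiolase, was at -1.44 ± 0.08 on day 3. On that day Echs1, the enoyl-CoA hydratase, was at -1.08 ± 0.10 and Acat1, the acetoacetyl-CoA thiolase, at -1.03 ± 0.08, and the scaled values of these 3 genes were -0.47, -0.11 and -0.06.

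Unsaturated chains need auxiliary enzymes. Eci1, a mitochondrial enoyl-CoA isomerase, was at -1.54 ± 0.07 on day 3 and Decr1, the dienoyl-CoA reductase, at -1.48 ± 0.10 on day 5, and both were lower on all 6 days in both scalings. Eci2, an isomerase also found in peroxisomes, fell less: it was lowest on day 1 at -0.61 ± 0.11 and stood at -0.27 on day 7 (adjusted p = 0.050), and it was above day 0 when scaled to fibre genes on days 3, 5, 7 and 10 (0.57, 0.63, 0.43 and 0.26). Its calls of day 3 (-0.40) and day 10 (-0.35) were lost without the left pool of day 0 (-0.37 and -0.32) or the right pool of the later day (-0.35 and -0.33).

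Etfa and Etfb, the subunits of the electron transfer flavoprotein, and Etfdh, which hands its electrons to ubiquinone, were lower on all 6 days, at -1.38 ± 0.09, -0.94 ± 0.08 and -1.39 ± 0.11 on day 5, although Etfb was at 0.02 on day 3 and 0.10 on day 5 when scaled to fibre genes. On that scale Etfa was at -0.34 on day 5 (adjusted p = 0.051). Of the thioesterases, which release free acids from acyl-CoA, Acot13 was at -1.80 ± 0.10 on day 5 (limma, adjusted p = 1.8e-08) with signals of 9.50 and 9.37, against 11.19 and 11.27 on day 0. It was called lower on all 6 days in both scalings. Acot2, the mitochondrial matrix form, was at -0.90 ± 0.12 on day 7 as deposited, and above day 0 on days 3 and 5 when scaled (0.40 and 0.26).

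Lipid droplet genes divided. Plin2, the droplet coat protein found in most cell types, had log2 signals of 11.30 and 11.32 on day 0, 12.93 and 12.68 on day 1, 12.73 and 12.76 on day 3, 12.45 and 12.54 on day 5, 11.78 and 12.07 on day 7, 11.62 and 11.77 on day 10 and 11.50 and 11.34 on day 14. It was 2.82-fold of day 0 on day 1 (1.50 ± 0.11, limma, adjusted p = 3.4e-07), 2.70-fold on day 3 and 2.28-fold on day 5. It then declined, to 0.62 ± 0.11 on day 7 and 0.38 ± 0.11 on day 10, and on day 14 the difference of 0.11 ± 0.11 was not called (adjusted p = 0.41). The day 10 call was lost with equal array medians (0.25, adjusted p = 0.067) and without the right pool of day 10 (0.31, adjusted p = 0.075). Plin2 was above day 0 on all 6 days in both scalings. Plin2 is also abundant in lipid-laden macrophages, whose marker genes are given above, and the part of those cells was not tested.

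Plin5, the coat protein that ties droplets to mitochondria in oxidative tissue, ran the other way as deposited, with signals of 8.56 and 8.76 on day 0, 8.26 and 8.27 on day 1, 7.82 and 7.82 on day 3, 7.70 and 7.71 on day 5, 7.50 and 7.57 on day 7, 7.66 and 7.66 on day 10 and 7.60 and 7.50 on day 14. It was at -0.39 ± 0.08 on day 1 and -1.12 ± 0.08 on day 7, and 1.3% of its fall was regained by day 14 (-1.11 ± 0.08). When scaled to fibre genes Plin5 was at 0.08, 0.13 and 0.08 on days 1, 3 and 5, then at -0.42, -0.39 and -0.76 on days 7, 10 and 14. Pnpla2, the triglyceride lipase ATGL, was called from day 3 on and lowest on day 7 at -1.08 ± 0.13, and Lipe, the hormone-sensitive lipase, was lower on all 6 days and lowest on day 7 at -0.90 ± 0.11. Both were above day 0 when scaled on days 3 and 5 (0.31 and 0.05 for Pnpla2, 0.50 and 0.64 for Lipe). The Lipe call of day 5 (-0.40, adjusted p = 0.0077) was lost without the left pool of day 0 or the right pool of day 5 (-0.33 in both).

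Ucp3, a mitochondrial carrier of muscle that follows fatty acid supply, fell furthest. Its signals were 10.71 and 10.74 on day 0, 9.44 and 9.25 on day 1, 9.10 and 8.98 on day 3, 9.25 and 8.59 on day 5, 8.85 and 8.66 on day 7, 9.34 and 9.15 on day 10 and 9.74 and 9.67 on day 14. Day 7 was at 0.25 of day 0 (-1.98 ± 0.17, limma, adjusted p = 6.3e-07). All later arrays lay below both of day 0, and the pools of day 5 were 0.66 apart. Ucp3 was called lower on all 6 days in both scalings, at -1.02 ± 0.17 on day 14 as deposited and -0.67 scaled.

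Pdk4, the kinase that shuts pyruvate dehydrogenase when fatty acids are burned, changed direction. Its signals were 13.31 and 13.31 on day 0, 13.83 and 13.95 on day 1, 13.39 and 13.31 on day 3, 12.77 and 12.49 on day 5, 12.29 and 12.15 on day 7, 12.35 and 12.14 on day 10 and 12.74 and 12.64 on day 14. It was 1.50-fold of day 0 on day 1 (0.58 ± 0.10, limma, adjusted p = 0.00052), did not pass the test on day 3 (0.04 ± 0.10, adjusted p = 0.77), and was lower on days 5, 7, 10 and 14, at -0.68, -1.09, -1.06 and -0.62. Both pools of day 1 lay above both of day 0 and both pools of days 5 to 14 below them. Scaled to fibre genes, Pdk4 was higher on days 1, 3 and 5 (1.06, 1.01 and 0.36) and lower on days 7 and 10 (-0.38 and -0.45), with -0.27 on day 14 (adjusted p = 0.21).

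Between days 1 and 3 the route fell further as deposited: 21 members were lower on day 3 than on day 1 and 3 were higher. Of all genes, 24.7% were lower and 19.5% higher. Scaling to fibre genes turned the member counts to 1 and 9, and the share of all genes on that scale was not counted here. The scaled median of all genes against day 0 was 0.52 on day 1 and 0.90 on day 3. The 3 higher members were Cpt1a (1.03 ± 0.07, adjusted p = 8.2e-07), Acsl5 (0.86 ± 0.11) and Cd36 (0.27 ± 0.07). Pdk4 was lower by 0.54 on the log2 scale (-0.54 ± 0.10, adjusted p = 0.0014) and at -0.04 scaled. The Cd36 call was lost without the right pool of day 1 or of day 3. Without the left pool of day 1 the count of higher members was 5, among them Cpt2 (0.30, adjusted p = 0.029), which stood at 0.16 with all arrays. Fibre genes had a median of -0.35 between these days.

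Between days 5 and 14 the order turned as deposited. On day 14, 23 members were higher than on day 5 and 5 were lower, where 13.1% of all genes were higher and 14.0% lower. Scaling to fibre genes gave 0 higher and 21 lower members, and the share of all genes on that scale was not counted here. The scaled median of all genes against day 0 was 0.92 on day 5 and 0.24 on day 14. As deposited, the higher members were led by Fabp3 (0.97 ± 0.17), Ucp3 (0.79 ± 0.17), Lpl (0.74 ± 0.09) and Hadhb (0.72 ± 0.10). The lower ones were Plin2 (-1.08 ± 0.11), Cpt1a (-0.75 ± 0.07), Slc27a1 (-0.64 ± 0.11), Acsl5 (-0.55 ± 0.11) and Acsl4 (-0.44 ± 0.09). With fibre scaling Fabp3, Ucp3, Lpl and Hadhb stood at 0.28, 0.10, 0.05 and 0.03 and were no longer called. Fibre genes had a median of 0.64 and macrophage genes of -0.76 between these days, with 24 of 25 fibre genes higher and 14 of 14 macrophage genes lower. Without the right pool of day 5, the array with the lower fibre signal, 11 members were higher. The 12 calls lost were those of Acsl6, Crat, Slc22a5, Mlycd, Acads, Acadl, Acadvl, Hadha, Echs1, Acaa2, Acat1 and Etfb.

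**Figure D4:**
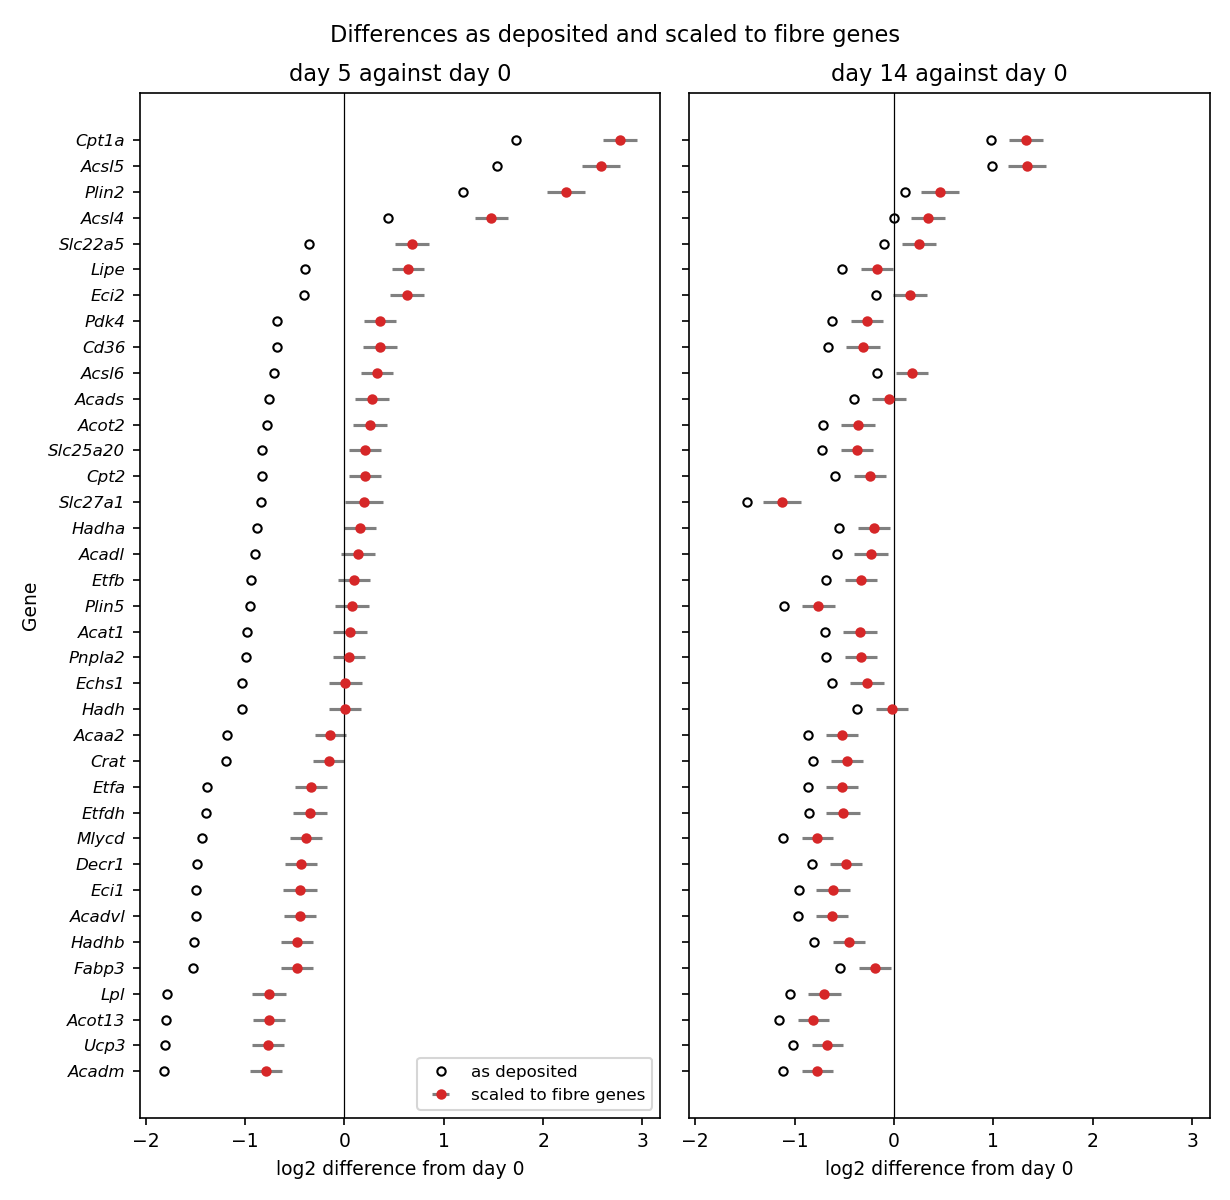
Log2 difference from day 0 of each fatty acid gene on day 5 (left panel) and day 14 (right panel), as deposited (open circles) and scaled to the median of 25 fibre genes (red, with SE from limma). On day 5, Acadm, Ucp3, Acot13 and Lpl stay below 0 in both, Hadh and Echs1 sit at 0.01 when scaled, and Cpt1a and Acsl5 are above 0 in both.

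Members thus separated by how they stood to the fibre genes. Scaled to them, 6 were called lower on all 6 days (Lpl, Eci1, Decr1, Etfdh, Acot13 and Ucp3) and 9 on at least 5 days, with Mlycd, Acadm and Acadvl added. Called higher on at least 5 days were 4, namely Acsl4, Acsl5, Cpt1a and Plin2, of which Acsl5 and Cpt1a on all 6. On single days 31.2% to 90.2% of all genes were called higher on that scale and 2.29% to 4.95% lower. A higher call was thus common among all genes, and calls on several days were not counted over all genes. Slc25a20, Acadl, Acads, Hadha, Acat1 and Etfb were called on no day on that scale, which does not show that they moved with the fibres. The fibre genes are among the brightest on the array, and whether a limit at the top of the signal range compressed their fall was not tested.

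RefSeq promoters on GRCm38.p6, 250 bases before to 50 after a gene's start, were searched on both strands for elements known to bind these regulators, since most members moved together. At least 1 window was used for 34 of the 41 listed genes, 41 windows in all. Member windows on 1 chromosome were left out, while the windows of all genes were not filtered in this way, so their shares come from unlike sets. The estrogen-related receptor element TCAAGGTCA stood in 1 window, that of Acsl6, and in 0.423% of all 32851 windows. The PPAR element AGGTCANAGGTCA, a direct repeat with any base between, was found in 0 member windows with up to 1 mismatch (0.554% of all windows). With up to 2 mismatches, a setting chosen after that result, it stood in 6 member windows (14.6%) and 3.86% of all windows, in Cd36, Echs1, Etfa, Plin2, Slc25a20 and Ucp3. These 6 genes include Plin2, which was higher, and 5 that were lower as deposited, of which Cd36, Echs1 and Slc25a20 were above 0 on day 5 when scaled. Shown are the 250 bases before the start for the member that rose most on day 1, the one that fell furthest and the membrane carrier, 5′ to 3′ on the gene's strand, with the match of 2 mismatches in capitals: Plin2 at chr4:86670060-86670309 (minus strand), Ucp3 at chr7:100472741-100472990 (plus strand) and Cd36 at chr5:17835897-17836146 (minus strand).
Plin2: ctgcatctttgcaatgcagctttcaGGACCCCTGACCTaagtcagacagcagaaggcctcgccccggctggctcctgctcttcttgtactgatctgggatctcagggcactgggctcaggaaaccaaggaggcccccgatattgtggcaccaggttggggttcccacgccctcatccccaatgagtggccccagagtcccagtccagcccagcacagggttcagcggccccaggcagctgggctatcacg
Ucp3: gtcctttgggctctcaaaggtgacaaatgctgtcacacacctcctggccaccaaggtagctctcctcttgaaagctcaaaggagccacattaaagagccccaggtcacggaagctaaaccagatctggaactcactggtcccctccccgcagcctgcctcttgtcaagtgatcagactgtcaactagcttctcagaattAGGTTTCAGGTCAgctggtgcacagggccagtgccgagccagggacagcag
Cd36: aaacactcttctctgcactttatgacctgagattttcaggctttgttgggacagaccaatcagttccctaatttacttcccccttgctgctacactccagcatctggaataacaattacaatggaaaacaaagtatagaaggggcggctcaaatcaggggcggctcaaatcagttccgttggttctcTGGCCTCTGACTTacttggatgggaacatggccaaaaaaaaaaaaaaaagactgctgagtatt
The Plin2 match begins at base -225, the Ucp3 match at -51 and the Cd36 match at -63, counted from the start. A match is a likeness of letters and shows no binding, and its absence from a window says nothing about the factor.

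Other lipid genes are given for context. Of 12 regulators of fatty acid oxidation, 10 were lower and 0 higher on day 5 (median -1.12, and -0.08 scaled to fibre genes). Ppargc1a, which encodes PGC-1alpha, was at 8.86 and 8.47 on day 3, against 11.21 and 11.19 on day 0, a log2 difference of -2.53 ± 0.21 (limma, adjusted p = 7.2e-07). Rxrg, a partner receptor of the PPARs, was at -2.16 ± 0.10 on day 3. Both stayed below day 0 when scaled (-1.56 and -1.19).

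Of 13 genes of peroxisomal oxidation 8 were lower and 3 higher on day 5 (median -0.49, turning to 0.55 when scaled). The list was led by Abcd2, a peroxisomal importer of very long chains, at -2.41 ± 0.11 on day 7, and Crot, which makes medium-chain acylcarnitine, at -1.55 ± 0.07 on day 1. Both measured ketone body genes were lower on all days as deposited (median -2.03 on day 5, and -0.99 scaled), Bdh1 by 2.69 on the log2 scale on day 5 (-2.69 ± 0.20) and Oxct1, which activates acetoacetate, by 1.49 on day 3 (-1.49 ± 0.08). Of 8 other genes around pyruvate dehydrogenase 7 were lower and 1 higher on day 5 (median -1.21, and -0.17 scaled). The higher one was Pdk3, a sister kinase of Pdk4, which was at 2.42 ± 0.12 on day 7, and Pdp1, the phosphatase that reverses them, was at -1.58 ± 0.07 on day 1.

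Genes of fatty acid synthesis and desaturation showed a mixed course, with 9 of 13 lower and 2 higher on day 1 (median -0.44, and 0.03 scaled) and 3 lower and 8 higher on day 5 (median 1.08, and 2.12 scaled). Elovl1, which elongates saturated very long chains, was at 2.06 ± 0.11 and Me1, the malic enzyme that makes NADPH, at -2.00 ± 0.10, on days 7 and 10. Of 14 other droplet genes 9 were lower and 4 higher on day 1 (median -0.38, and 0.10 scaled). Hilpda, an inhibitor of ATGL induced by low oxygen, was at 10.25 and 10.41 on day 1, against 7.40 and 7.27 on day 0 (3.00 ± 0.09, limma, adjusted p = 6.4e-10). Plin4, a droplet coat of fat and muscle, was at -2.57 ± 0.12 on day 7. Of 10 other uptake genes 2 were lower and 5 higher on day 5 (median 0.20, and 1.24 scaled). Angptl4, a secreted inhibitor of lipoprotein lipase, was at 11.20 and 11.11 on day 3, against 8.07 and 8.37 on day 0 (2.94 ± 0.10, adjusted p = 1.1e-09). Fabp5, a fatty acid binding protein of skin, capillary and macrophage cells, was at 3.06 ± 0.10 on day 7.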

How the data were processed

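The 14 RNA pools, 2 for each of 7 days, went onto Affymetrix Mouse Gene 1.0 ST arrays. Per the labels, RNA input was either 100 ng (design text) or 250 ng (protocol for labelling), and the sources do not settle this. The values deposited by the authors are log2 signals per probe set, between 2.35 and 14.8, with array medians between 7.91 and 7.97. The submitters' processing notes name Partek, and how values were normalized was not given in the sources used here. Raw scans were not analysed here, so no detection call or background limit is known, and precision is limited by how many arrays there are.

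In the annotation, 21789 of 35557 probe sets carried 1 gene symbol, 1621 carried several and 12147 carried none. The first kind was used, with the probe set of the highest mean standing for a gene, which gave 19938 genes and no filter on low values. Linear models with the day as group used every array and were run in limma 3.58.1 under R 4.3.3 (7 residual degrees of freedom), with two-sided moderated tests. P-values received the Benjamini-Hochberg adjustment across the 19938 genes, and a call was an adjusted value under 0.05. Each day was compared with day 0, day 3 with day 1 and day 14 with day 5, and a moderated F test covered all days. The procedure was tested on simulated data.

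All measured members are named, and of each other lipid list the 2 genes with the largest called difference from day 0 on any day, on that day. Members, gene lists and marker lists were chosen with earlier results of these data known. Alternatives were quantile normalization, equal array medians, scaling to the median of 25 fibre genes, the lowest 25% of genes left out, averaging all probe sets of a gene, variances with a trend on intensity fitted robustly, a block for side, a fit to just the 4 arrays of a comparison, an adjusted p under 0.01 and each array left out in turn.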

Additional observations from a re-analysis of the deposited data

How the results depend on the processing

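Scaling to fibre genes was the one alternative that turned directions. It placed the median of all genes at 0.52, 0.90, 0.92, 0.57, 0.49 and 0.24 on days 1, 3, 5, 7, 10 and 14, and equal array medians moved it to 0.01, -0.17, -0.25, -0.29, -0.26 and -0.23. With fibre scaling the log2 differences from day 0 that changed sign and were called on at least 1 of both scales were, on day 1 Slc27a1 0.11, Acadl 0.05, Plin5 0.08; on day 3 Cd36 0.40, Slc27a1 0.28, Acsl6 0.39, Cpt2 0.06, Slc25a20 0.25, Slc22a5 0.51, Acads 0.20, Acadl 0.24, Hadha 0.15, Eci2 0.57, Etfb 0.02, Acot2 0.40, Pnpla2 0.31, Lipe 0.50, Plin5 0.13; on day 5 Cd36 0.36, Slc27a1 0.20, Acsl6 0.33, Cpt2 0.21, Slc25a20 0.21, Slc22a5 0.68, Acads 0.28, Acadl 0.14, Hadh 0.01, Hadha 0.16, Echs1 0.01, Acat1 0.06, Eci2 0.63, Etfb 0.10, Acot2 0.26, Pnpla2 0.05, Lipe 0.64, Plin5 0.08, Pdk4 0.36; on day 7 Acsl6 0.11, Slc22a5 0.37, Acads 0.18, Eci2 0.43; on day 10 Acsl4 0.61, Acsl6 0.16, Slc22a5 0.48, Acads 0.24, Eci2 0.26. On neither scale called were 3 more sign changes on day 1 (Acsl6 0.29, Slc25a20 0.26, Pnpla2 0.26) and 4 on day 14 (Acsl4 0.34, Acsl6 0.18, Slc22a5 0.25, Eci2 0.16). On day 14 against day 5, 25 members changed sign, all called on at least 1 scale, Cd36 -0.68, Acsl6 -0.16, Cpt2 -0.44, Slc25a20 -0.58, Crat -0.32, Slc22a5 -0.43, Mlycd -0.39, Acads -0.33, Acadl -0.36, Acadvl -0.17, Hadh -0.03, Hadha -0.36, Echs1 -0.28, Acaa2 -0.38, Acat1 -0.40, Eci1 -0.16, Eci2 -0.47, Decr1 -0.04, Etfa -0.18, Etfb -0.42, Etfdh -0.16, Acot2 -0.62, Acot13 -0.05, Pnpla2 -0.38, Pdk4 -0.63. On day 3 against day 1, 22 did, of which 7 were called on neither scale and 15 were Slc27a1 0.17, Acsl6 0.10, Crat 0.00, Acads 0.40, Acadl 0.19, Hadh 0.26, Hadha 0.22, Hadhb 0.02, Decr1 0.05, Etfa 0.11, Etfb 0.25, Etfdh 0.09, Acot13 0.04, Pnpla2 0.05, Plin5 0.05. The member medians of days 3 and 5 became 0.06 and 0.08. Lower calls became 13, 10, 11, 17, 16 and 15 on days 1 to 14, and higher calls 11, 9 and 5 on days 3, 5 and 10. On day 14 against day 5 they became 21 lower and 0 higher, and on day 3 against day 1 they became 1 lower and 9 higher. The cause was not tested. Under the other alternatives the counts stayed within 1.5 times, apart from 2 that leave out an array: higher on day 14 against day 5 ranged from 11 to 22 and higher on day 3 against day 1 from 2 to 5. No alternative other than fibre scaling turned the sign of a member's called difference.

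Right minus left differences correlated between days at r from -0.19 to 0.35 (median 0.066). Of 21 pairs of days, 15 were above 0 and 6 over 0.1. The median right minus left of the members was 0.03 on day 0 and -0.10, -0.06, -0.15, -0.10, -0.06 and -0.08 on days 1 to 14. For the fibre genes it was 0.02 on day 0 and between -0.36 and -0.02 on the later days. Whether a difference between sides ran through the days was not tested. With the side as a replicate block, 30, 32, 33, 33, 32 and 30 members were lower and 5, 4, 4, 4, 3 and 2 higher on days 1 to 14, 25 were higher on day 14 than on day 5 and 23 lower on day 3 than on day 1. Calls against day 0 lost when 1 array was left out stand beside their genes in the results. On day 14 against day 5, 12 calls were lost in at least 1 such fit, and on day 3 against day 1, 8 were (Cd36, Slc27a1, Acsl6, Hadh, Hadha, Etfb, Etfdh and Pnpla2), where lower calls ranged from 15 to 19. Slc22a5 was called lower on days 10 and 14 with quantile normalization (-0.27 and -0.22) and with equal array medians (-0.27 and -0.21). Eci2 on day 7 was called lower in 7 alternatives (-0.42 to -0.27). With 2 arrays per day, leaving 1 out rests the spread of that day on the other days.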
